A study of Homo sapiens with 12 samples.

Results

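The genes described here carry glucose into the cell, break it down to pyruvate and lactate, let pyruvate into the mitochondrion, and store or release glucose as glycogen. They were taken as the rows of the deposited expression table whose Ensembl IDs map to 38 symbols, and 38 of 38 had a row among the 16299 genes of the table. For testing, a gene needed at least 1 RPKM (reads per kilobase of gene, scaled to the reads mapped in the library) in at least 2 libraries. That left 37 members and 15794 genes in all, and LDHB, at 0.396 to 0.92 RPKM in the 12 libraries, was the member left out.

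Poly-A RNA was sequenced from 2 established human cell lines of pancreatic ductal adenocarcinoma embedded in hydrogels. PANC1 and BXPC3 cells were placed in 5% GelMA, in 7.5% GelMA or in collagen, with 2 libraries in each of the 6 groups. GelMA is gelatin carrying methacryloyl groups, which allow it to be cross-linked into a gel, and collagen is the native protein from which gelatin is made. Both lines were kept in high glucose medium with fetal bovine serum, per the labels' protocols, and no gene was edited and no drug was added in any group, as far as the labels say. Each line is a single established culture of tumour cells, so neither gel held the fibroblasts, vessels or immune cells of a pancreatic tumour by design. Gel stiffness, oxygen, culture time and whether the replicates were separate cultures are not stated in these sources. The p-values therefore measure only how far these libraries spread, and that spread may be technical. SMAD4, which BXPC3 is known to have lost, lay at 15.4 to 23.4 RPKM in the PANC1 libraries and at 0.0165 to 0.0246 RPKM in the BXPC3 libraries, as their labels say. The keratin KRT18, a marker of epithelial cells, lay at 2202 to 3302 RPKM in PANC1 and 1341 to 1817 RPKM in BXPC3.

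Glycolysis turns a glucose molecule into pyruvate in the cytosol and yields a little ATP without oxygen. Pyruvate is then either reduced to lactate, which keeps glycolysis running, or taken into the mitochondrion and oxidised by the pyruvate dehydrogenase complex, which kinases switch off and phosphatases switch back on. Tumour cells are known for taking up much glucose and releasing lactate, and many genes of the pathway exist in isoforms of which some are known targets of the hypoxia-inducible factors. Glycogen is the cell's branched store of glucose, joined to glycolysis through glucose 6-phosphate and glucose 1-phosphate.

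The core letters that hypoxia-inducible factors are known to bind are ACGTG and GCGTG. They were searched on both strands in the 250 bases before the annotated start of each member, taken from RefSeq sequence on GRCh38.p14. ACGTG also lies inside CACGTG, the E-box that MYC and other factors are known to bind, so a match does not point to a factor. A total of 35 members had an entry, and SLC2A3, PFKFB2 and PDP1 were not searched. The letters were found in 22 of the 35 windows (62.9%), against 56.2% of the windows of tested genes and 43.2% of all 35116 windows. They stood in at least 2 places in 42.9% of the member windows, against 24.3% for tested genes and 16.2% for all. The windows of 4 members are shown because the values below set these genes apart: HK2 and LDHA were lower in GelMA in both lines, HK1 was called lower in PANC1 and not in BXPC3, and PDHB was higher in GelMA in both lines. Capitals mark the searched letters as read on the strand of the gene, where CACGT and CACGC are the same letters on the other strand and overlapping matches count as 1 place. The HK2 window (chr2:74833877-74834126, plus strand) held them in 3 places, the LDHA window (chr11:18394313-18394562, plus strand) in 3, the PDHB window (chr3:58433833-58434082, minus strand) in 5, and the HK1 window (chr10:69269750-69269999, plus strand) in 0.
HK2: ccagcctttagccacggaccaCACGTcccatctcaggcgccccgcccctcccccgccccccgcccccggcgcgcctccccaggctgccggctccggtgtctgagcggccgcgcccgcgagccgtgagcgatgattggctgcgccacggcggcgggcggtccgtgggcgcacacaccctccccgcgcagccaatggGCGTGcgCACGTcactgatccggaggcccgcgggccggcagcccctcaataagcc
LDHA: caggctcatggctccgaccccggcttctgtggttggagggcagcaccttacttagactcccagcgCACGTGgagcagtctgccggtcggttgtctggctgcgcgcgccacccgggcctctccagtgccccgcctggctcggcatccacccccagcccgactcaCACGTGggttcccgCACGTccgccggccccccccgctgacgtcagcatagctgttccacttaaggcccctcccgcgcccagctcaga
PDHB: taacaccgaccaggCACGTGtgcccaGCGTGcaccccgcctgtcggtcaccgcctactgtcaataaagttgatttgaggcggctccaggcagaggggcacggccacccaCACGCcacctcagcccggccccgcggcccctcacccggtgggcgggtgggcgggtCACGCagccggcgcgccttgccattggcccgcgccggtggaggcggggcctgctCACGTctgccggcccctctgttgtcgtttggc
HK1: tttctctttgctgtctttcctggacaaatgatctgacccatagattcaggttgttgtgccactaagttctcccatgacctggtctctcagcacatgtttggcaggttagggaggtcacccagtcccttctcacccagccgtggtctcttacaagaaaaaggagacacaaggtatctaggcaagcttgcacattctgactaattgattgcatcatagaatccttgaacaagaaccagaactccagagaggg
The HK1 window lies at the outermost annotated start of that gene, and its other known starts were not searched. Among members lower in both lines 14 of 21 windows (66.7%) held the letters and 8 (38.1%) held them in at least 2 places, and among members higher in both lines 4 of 6 windows (66.7%) held them, all 4 in at least 2 places. SLC2A1, PFKP, TPI1, PGAM1, PDK1, PGM1 and PYGL were lower in both lines and their windows held none. The members also share little by position. They lie on 17 chromosomes, with 6 on chromosome 12, where GAPDH (from 6533927), TPI1 (from 6867119), ENO2 (from 6913745) and SLC2A3 (from 7919230) stand within the same stretch of GRCh38, and LDHB and PFKM stand farther along.

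Levels are given as RPKM, on a linear scale after the authors' normalization, and differences as log2 fold changes with their standard error (SE). The deposited values were taken to be quantile normalized, so genes that hold the same rank have the same value, and equal values such as 1357 RPKM for PGK1 in both PANC1 collagen libraries show an equal rank. The depth of the libraries is unknown. Members were called at an adjusted p under 0.05 in limma, with Benjamini-Hochberg adjustment over all 15794 genes. In bulk RNA, fewer cells of a kind and less RNA per cell cannot be told apart. Of all genes tested, 48.2% were higher in BXPC3 collagen replicate 2 than in replicate 1, but among the 23 members that were lower in BXPC3 GelMA, 22 were higher in replicate 2. CA9, a carbonic anhydrase known as a hypoxia marker, read 50.95 RPKM in replicate 2 and 19.4 RPKM in replicate 1. In PANC1 collagen, 9 of the 26 members lower in GelMA were higher in replicate 2. The BXPC3 counts, and the BXPC3 values of the main members, are therefore also given without each of these 2 libraries.

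PANC1 cells in GelMA held less mRNA than PANC1 cells in collagen for nearly every step from glucose uptake to lactate, and less for PDK1 and PDK3, which are among the kinases that shut pyruvate dehydrogenase. They held more mRNA for the pyruvate dehydrogenase subunits, its phosphatase and the mitochondrial pyruvate carrier. Of 37 members, 26 were lower, where 27.4% of all tested genes were, and 10 were higher, where 27.7% were. That higher count stood near the share of all genes. The median log2 fold change was -0.78 over the members and -0.01 over all genes, and 14 members were at least 2-fold lower. SLC2A3 is counted among the 26 and the 14, although it passed the filter only through the 2 PANC1 collagen libraries, where it was high. PDK2 was the member called in neither direction. In 26 members the 4 GelMA libraries all lay under the 2 collagen libraries, as in 31.7% of tested genes, and in 9 they all lay above, as in 29.9%. The count lying above was also near or below the share of all genes. The 38 members together summed to 1.54% and 1.5% of all RPKM in 5% GelMA and 1.13% and 1.15% in 7.5% GelMA, against 2.02% and 2% in collagen. The number lower was 26 and the number higher 8 to 10 when any library was left out.

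BXPC3 cells in GelMA also held less mRNA for most steps from uptake to lactate and more for pyruvate entry, with smaller differences. Of 37 members, 23 were lower in GelMA than in collagen, where 16.7% of tested genes were, and 8 were higher, where 19.4% were. Here too the higher count stood near the share of all genes. The median log2 fold change was -0.41 over the members and 0.01 over all genes, and 8 members were at least 2-fold lower. HK1, ALDOA, PKM, PDK2, PDK3 and PDHA1 were called in neither direction. The GelMA libraries all lay under the collagen libraries in 24 members, as in 25.2% of tested genes, and all above them in 8, as in 26.8%. The count lying above was again near or below the share of all genes. The 38 members summed to 1.37% and 1.41% of all RPKM in 5% GelMA and 1.47% and 1.46% in 7.5% GelMA, against 1.72% and 1.93% in collagen. Without BXPC3 collagen replicate 2, 21 members were lower and 4 higher, PFKM, PFKFB2, PDHB and PDP1 being no longer called, and without replicate 1 the counts were 22 and 8.

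For 12 main members the decrease in BXPC3 was smaller without BXPC3 collagen replicate 2 and larger without replicate 1. Without replicate 2 the log2 fold changes in BXPC3 were -0.57 for SLC2A1, -0.56 for HK2, -0.62 for GPI, -1.25 for PFKFB3, -1.05 for PFKFB4 and -0.98 for ALDOC. Farther along they were -0.79 for PGK1, -1.38 for ENO2, -0.92 for LDHA, -1.25 for PDK1, -0.37 for GYS1 and -0.17 for PYGL. Without replicate 1 they were -0.88 for SLC2A1, -0.87 for HK2, -0.90 for GPI, -1.70 for PFKFB3, -1.67 for PFKFB4 and -1.48 for ALDOC. For the later genes they were -1.35 for PGK1, -2.12 for ENO2, -1.34 for LDHA, -1.58 for PDK1, -0.57 for GYS1 and -0.33 for PYGL. Each of these 12 members was called in both cases, with adjusted p-values in limma of 0.0465 or less. MPC1 was higher by 0.65 without replicate 2 and by 0.64 without replicate 1.

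**Figure D1:**
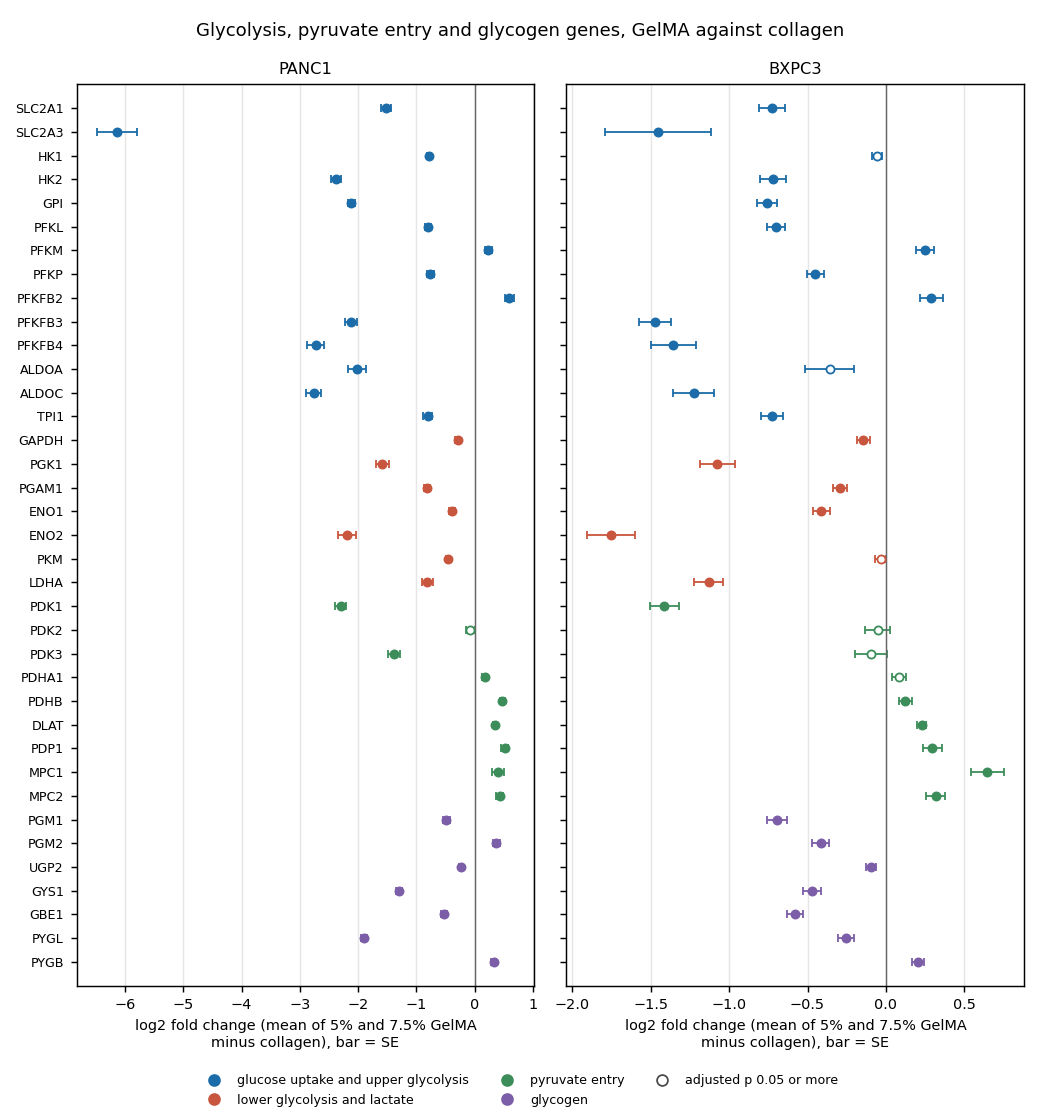
Log2 fold change of each tested member between GelMA (mean of 5% and 7.5%) and collagen, in PANC1 (left) and BXPC3 (right, on a narrower axis), with the SE as a bar and open circles for an adjusted p of 0.05 or more. Points left of the zero line are lower in GelMA: 26 members were called there in PANC1 and 23 in BXPC3, while PFKM, PFKFB2, most pyruvate entry genes and PYGB lie to the right in both, and the BXPC3 value of SLC2A3 rests on levels under 1 RPKM.

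A total of 22 members were lower in GelMA in both lines, where 8.47% of tested genes were, and 8 were higher in both, where 9.02% were. SLC2A3 is among the 22 and among the 23 lower in BXPC3, although it lay under 0.15 RPKM in every BXPC3 library and its BXPC3 call was lost with 1 RPKM added before the log. The 22 span glucose uptake (SLC2A1, SLC2A3), the upper steps (HK2, GPI, PFKL, PFKP, PFKFB3, PFKFB4, ALDOC, TPI1), the lower steps (GAPDH, PGK1, PGAM1, ENO1, ENO2, LDHA), the pyruvate dehydrogenase kinase PDK1 and glycogen (PGM1, UGP2, GYS1, GBE1, PYGL). The 8 were PFKM, PFKFB2, PDHB, DLAT, PDP1, MPC1, MPC2 and PYGB. PGM2 alone was called in opposite directions, as 6.38% of tested genes were. HK1, ALDOA, PKM, PDK3 and PDHA1 were called in PANC1 and not in BXPC3, as 31.2% of tested genes were, and the test of that difference is given further on. By stage, 12 of 14 uptake and upper glycolysis members were lower in PANC1 and 10 of 14 in BXPC3. Of the lower glycolysis and lactate members, 7 of 7 were lower in PANC1 and 6 of 7 in BXPC3. Of 9 pyruvate entry members, 6 were higher and 2 lower in PANC1, and 5 were higher and 1 lower in BXPC3. Of 7 glycogen members, 5 were lower and 2 higher in PANC1, and 6 were lower and 1 higher in BXPC3. These stage counts stand against 27.4% of tested genes lower and 27.7% higher in PANC1 GelMA, and 16.7% lower and 19.4% higher in BXPC3 GelMA. The lower counts in pyruvate entry and the higher counts in glycogen stood near or below those shares.

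Glucose enters through SLC2A1, the basal glucose transporter GLUT1 (ENSG00000117394, chromosome 1, 42925375 to 42959176). In PANC1 it read 50.6 and 47.7 RPKM in 5% GelMA and 56.7 and 66.2 RPKM in 7.5% GelMA, against 158 and 156 RPKM in collagen. In BXPC3 it read 378 and 374 RPKM in 5% GelMA and 392 and 377 RPKM in 7.5% GelMA, against 564 and 703 RPKM in collagen. GelMA libraries lay below collagen libraries without overlap in both lines, by 2.87-fold in PANC1 (log2 fold change -1.52, SE 0.08, adjusted p = 3e-07) and 1.66-fold in BXPC3 (-0.73, SE 0.08, adjusted p = 0.000153). Even in collagen PANC1 held 4.003-fold less SLC2A1 mRNA than BXPC3. SLC2A3, the high affinity transporter GLUT3, read 0.302 and 0.584 RPKM in PANC1 5% GelMA and 0.0623 and 0.0345 RPKM in PANC1 7.5% GelMA, against 9.32 and 10.3 RPKM in PANC1 collagen. PANC1 cells in collagen were the group in which it exceeded 1 RPKM: all 6 BXPC3 libraries lay between 0.031 and 0.144 RPKM. SLC2A3 thus passed the filter only through the group in which it was high, so its test against PANC1 collagen is no independent support. The deposited log2 scale gave -6.14 for PANC1, a size that depends on the unknown offset of values near 0, and with 1 RPKM added before the log the difference was -3.14 (adjusted p = 1.35e-09). The BXPC3 call was lost on that scale (adjusted p = 0.331).

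Hexokinases trap glucose as glucose 6-phosphate. HK2, the inducible form (ENSG00000159399), read 16.7 and 15.4 RPKM in PANC1 5% GelMA and 11.4 and 10.7 RPKM in PANC1 7.5% GelMA, against 67.96 and 70.1 RPKM in PANC1 collagen. It read 58.5 and 65.2 RPKM in BXPC3 5% GelMA and 66.3 and 61.1 RPKM in BXPC3 7.5% GelMA, against 92.6 and 115 RPKM in BXPC3 collagen. The groups did not overlap in either line, and HK2 was 5.19-fold lower in PANC1 GelMA (-2.38, SE 0.08, adjusted p = 2.96e-08) and 1.65-fold lower in BXPC3 GelMA (-0.72, SE 0.08, adjusted p = 0.000189). HK1, the constitutive form, read 123 and 123 RPKM in PANC1 5% GelMA and 90.8 and 90.9 RPKM in PANC1 7.5% GelMA, against 182 and 180.2 RPKM in PANC1 collagen, all GelMA libraries below collagen (log2 fold change -0.78, SE 0.03). In BXPC3 HK1 read 174 and 166 RPKM in 5% GelMA and 161 and 169 RPKM in 7.5% GelMA, against 178 and 171 RPKM in collagen, with overlapping groups and no call (-0.06, SE 0.03, adjusted p = 0.2). GPI, which turns glucose 6-phosphate into fructose 6-phosphate, read 214 and 207 RPKM in PANC1 5% GelMA and 129.9 and 136 RPKM in PANC1 7.5% GelMA, against 716 and 730.4 RPKM in PANC1 collagen. It was 4.33-fold lower in PANC1 GelMA and 1.69-fold lower in BXPC3 GelMA, where it read 177 and 186 RPKM in 5% and 199 and 186 RPKM in 7.5% GelMA, against 286 and 348 RPKM in collagen.

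Phosphofructokinase, the committed step, is a tetramer of subunits from 3 genes, and these did not move together. The liver type PFKL and platelet type PFKP were lower in GelMA in both lines, with log2 fold changes of -0.80 in PANC1 and -0.70 in BXPC3 for PFKL and of -0.76 in PANC1 and -0.45 in BXPC3 for PFKP. The muscle type PFKM was slightly higher, at 46.8 and 46.1 RPKM in PANC1 5% GelMA and 43.9 and 45.3 RPKM in PANC1 7.5% GelMA, against 39.4 and 38.2 RPKM in PANC1 collagen. The BXPC3 libraries held 44.9 and 41.7 RPKM in 5% GelMA and 43.2 and 49.2 RPKM in 7.5% GelMA, against 39.3 and 35.9 RPKM in collagen. These rises of 0.23 (adjusted p = 0.00749) and 0.25 (adjusted p = 0.00851) were lost without PANC1 collagen replicate 2 (0.21, adjusted p = 0.0571) and without BXPC3 collagen replicate 2 (0.18, adjusted p = 0.0964). Of the PFKM exon bases, 8.58% are also covered by another gene on the opposite strand, and the strand setting of the counting is not known.

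The PFKFB enzymes make and break fructose 2,6-bisphosphate, the strongest known activator of phosphofructokinase. PFKFB3, whose kinase activity far exceeds its phosphatase activity, read 20.2 and 18.4 RPKM in PANC1 5% GelMA and 13.3 and 14.1 RPKM in PANC1 7.5% GelMA, against 69.5 and 72.4 RPKM in PANC1 collagen. Its levels in BXPC3 were 25.2 and 23.3 RPKM in 5% GelMA and 24.1 and 24.1 RPKM in 7.5% GelMA, against 57.5 and 78.4 RPKM in collagen. PFKFB4 read 26.9 and 25.4 RPKM in PANC1 5% GelMA and 7.25 and 6.86 RPKM in PANC1 7.5% GelMA, against 91.4 and 88.2 RPKM in PANC1 collagen, and 8.12 and 7.01 RPKM in BXPC3 5% GelMA and 6.73 and 7.87 RPKM in BXPC3 7.5% GelMA, against 15.3 and 23.5 RPKM in BXPC3 collagen. GelMA lay below collagen without overlap for both genes in both lines, and the folds were 4.36 and 6.61 in PANC1 and 2.78 and 2.56 in BXPC3 (adjusted p = 1.46e-07, 2.81e-07, 1.35e-05 and 0.000119). PFKFB2, the heart isozyme, went the other way, at 39.1 and 41.1 RPKM in PANC1 5% GelMA and 42.7 and 40.4 RPKM in PANC1 7.5% GelMA, against 24.4 and 29.96 RPKM in PANC1 collagen. It read 53.3 and 50.97 RPKM in BXPC3 5% GelMA and 50.6 and 47.7 RPKM in BXPC3 7.5% GelMA, against 43.2 and 39.6 RPKM in BXPC3 collagen. It was 1.51-fold higher in PANC1 GelMA (adjusted p = 9.82e-05) and 1.22-fold higher in BXPC3 GelMA (adjusted p = 0.0136), and the BXPC3 call ended without BXPC3 collagen replicate 2 (log2 fold change 0.23, adjusted p = 0.125).

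Aldolase splits fructose 1,6-bisphosphate into 2 triose phosphates. ALDOC, the brain isozyme (ENSG00000109107), read 43.4 and 43.7 RPKM in PANC1 5% GelMA and 10.3 and 8.42 RPKM in PANC1 7.5% GelMA, against 138 and 136 RPKM in PANC1 collagen. It read 21.6 and 24.7 RPKM in BXPC3 5% GelMA and 27.8 and 23.7 RPKM in BXPC3 7.5% GelMA, against 47.9 and 67.7 RPKM in BXPC3 collagen. The groups did not overlap, with ALDOC 6.79-fold lower in PANC1 GelMA (adjusted p = 1.4e-07) and 2.34-fold lower in BXPC3 GelMA (adjusted p = 0.00012). ALDOA, the ubiquitous isozyme, was listed at 1.61 to 2.82 RPKM in PANC1 GelMA, against 9.48 and 9.51 RPKM in PANC1 collagen. In the annotation 42.3% of its exon bases are also covered by another gene on the same strand, and for LDHB the share is 33.4%, the 2 highest among the members, so the levels of these genes are uncertain and are not ranked against ALDOC and LDHA. The part of the overlap in their levels was not tested. ALDOA fell in PANC1 GelMA by 2.02 on the log2 scale (SE 0.15, adjusted p = 3.29e-06). BXPC3 cells held 2.799 and 3.07 RPKM in 5% GelMA and 3.45 and 3.26 RPKM in 7.5% GelMA, against 4.25 and 3.81 RPKM in collagen, with a log2 fold change of -0.36 that was not called (adjusted p = 0.096) but passed without either PANC1 7.5% GelMA library (0.0333 and 0.0318). TPI1, which interconverts the trioses, was 1.75-fold lower in PANC1 GelMA and 1.65-fold lower in BXPC3 GelMA.

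**Figure D2:**
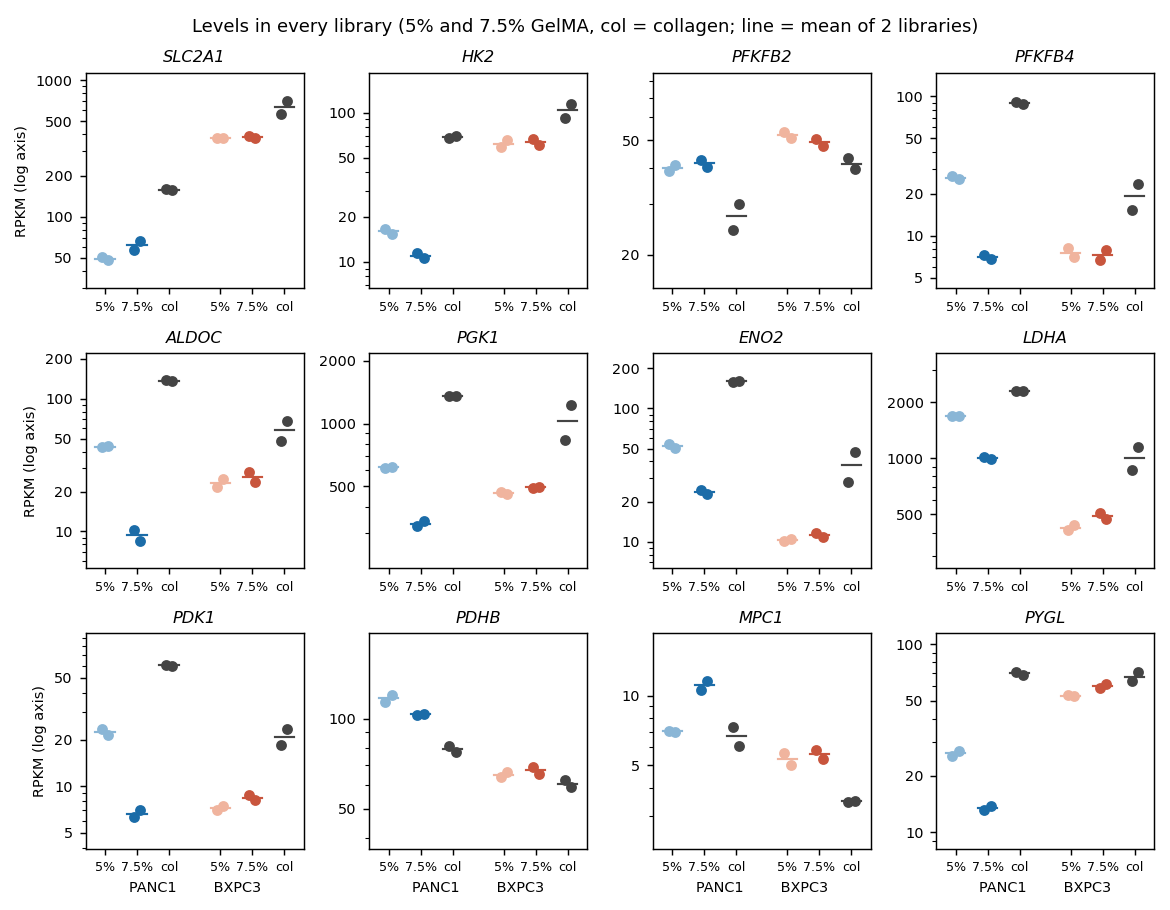
RPKM on log axes of 12 members in every library, by line and matrix, with 5% GelMA, 7.5% GelMA and collagen (col) from left to right within each line and a bar at the mean of 2 libraries. In PANC1, 7.5% GelMA lies under 5% GelMA for HK2, PFKFB4, ALDOC, PGK1, ENO2, LDHA, PDK1 and PYGL, while the BXPC3 GelMA groups lie near each other; PFKFB2 and PDHB lie higher in GelMA in both lines, and MPC1 does in BXPC3 and in PANC1 7.5% GelMA.

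The lower steps of the pathway, from glyceraldehyde phosphate to lactate, held the most abundant members, such as GAPDH, PKM and ENO1, and the differences of these 3 were small. Values are fixed by rank in a table taken to be quantile normalized, which may limit differences at such high ranks. GAPDH, which ranked between 14 and 26 by RPKM in the libraries, read 3770 and 3639 RPKM in PANC1 5% GelMA and 2799 and 2947 RPKM in PANC1 7.5% GelMA, against 4070 and 3913 RPKM in PANC1 collagen. It read 3406 and 3518 RPKM in BXPC3 5% GelMA and 3770 and 3770 RPKM in BXPC3 7.5% GelMA, against 3913 and 4070 RPKM in BXPC3 collagen. It fell by 0.29 on the log2 scale in PANC1 GelMA (adjusted p = 0.000323) and by 0.14 in BXPC3 GelMA (adjusted p = 0.0288). The BXPC3 call ended when any of 3 BXPC3 libraries was left out: 7.5% GelMA replicate 1 (adjusted p = 0.0591), 7.5% GelMA replicate 2 (0.0631) or collagen replicate 2 (0.14). GAPDH also has 62 annotated pseudogenes with which reads could be shared. PKM, the pyruvate kinase gene whose 2 splice forms are merged in a gene level, read 2045 and 2009 RPKM in PANC1 5% GelMA and 1504 and 1504 RPKM in PANC1 7.5% GelMA, against 2386 and 2386 RPKM in PANC1 collagen and was 1.37-fold lower in GelMA (adjusted p = 3.03e-06). In BXPC3 PKM lay between 3204 and 3302 RPKM in all 6 libraries and was not called (adjusted p = 0.499). ENO1, the common enolase, fell in GelMA by 0.39 in PANC1 and 0.41 in BXPC3, and the mutase PGAM1 fell by 0.82 in PANC1 and 0.30 in BXPC3, on the log2 scale.

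PGK1, ENO2 and LDHA differed more. PGK1, the first ATP-yielding enzyme of the pathway (ENSG00000102144, chromosome X), read 615 and 621 RPKM in PANC1 5% GelMA and 323 and 339.7 RPKM in PANC1 7.5% GelMA, against 1357 and 1357 RPKM in PANC1 collagen. In BXPC3 it read 468 and 457.5 RPKM in 5% GelMA and 491 and 499 RPKM in 7.5% GelMA, against 830.1 and 1222 RPKM in collagen. It was 3.0-fold lower in PANC1 GelMA (adjusted p = 1.97e-06) and 2.105-fold lower in BXPC3 GelMA (adjusted p = 0.000105), with no overlap. ENO2, the enolase form known from neurons, read 54.2 and 50.4 RPKM in PANC1 5% GelMA and 24.3 and 22.7 RPKM in PANC1 7.5% GelMA, against 159 and 162 RPKM in PANC1 collagen. The BXPC3 libraries held 10.1 and 10.5 RPKM in 5% GelMA and 11.6 and 10.9 RPKM in 7.5% GelMA, against 28.1 and 46.9 RPKM in collagen. ENO2 was 4.58-fold lower in PANC1 GelMA and 3.37-fold lower in BXPC3 GelMA (adjusted p = 1.69e-06 and 4.33e-05), and no other BXPC3 member had a larger decrease. LDHA, which reduces pyruvate to lactate (ENSG00000134333, chromosome 11), read 1683 and 1683 RPKM in PANC1 5% GelMA and 1017 and 998 RPKM in PANC1 7.5% GelMA, against 2291 and 2291 RPKM in PANC1 collagen. Its levels in BXPC3 were 411 and 439 RPKM in 5% GelMA and 509 and 473 RPKM in 7.5% GelMA, against 863 and 1158 RPKM in collagen. LDHA fell more in BXPC3 (2.19-fold, adjusted p = 3e-05) than in PANC1 (1.76-fold, adjusted p = 4.14e-05), a difference between the lines that was not called (0.32, SE 0.13, adjusted p = 0.078) and passed without BXPC3 collagen replicate 1 (0.53, adjusted p = 0.000327).

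At the entry of pyruvate into the mitochondrion the direction turned. PDK1, a kinase that inactivates pyruvate dehydrogenase (ENSG00000152256, chromosome 2, 172555373 to 172608669), read 23.5 and 21.6 RPKM in PANC1 5% GelMA and 6.34 and 6.98 RPKM in PANC1 7.5% GelMA, against 60.5 and 59.98 RPKM in PANC1 collagen. BXPC3 cells held 6.98 and 7.47 RPKM in 5% GelMA and 8.76 and 8.11 RPKM in 7.5% GelMA, against 18.5 and 23.3 RPKM in collagen. PDK1 was 4.92-fold lower in PANC1 GelMA (adjusted p = 5.25e-08) and 2.67-fold lower in BXPC3 GelMA (adjusted p = 1.14e-05), and the groups were far apart in both lines. PDK3, a further kinase of the family, read 4.25 and 4.11 RPKM in PANC1 5% GelMA and 2.999 and 3.15 RPKM in PANC1 7.5% GelMA, against 9.24 and 9.48 RPKM in PANC1 collagen, a 2.61-fold decrease (adjusted p = 2.89e-06). It read 3.85 and 4.62 RPKM in BXPC3 5% GelMA and 5.07 and 4.95 RPKM in BXPC3 7.5% GelMA, against 4.67 and 5.17 RPKM in BXPC3 collagen, where the groups overlapped (adjusted p = 0.51). PDK2 lay at 21.8 to 24.8 RPKM in all PANC1 libraries and 10.1 to 12.6 RPKM in all BXPC3 libraries, with adjusted p = 0.464 in PANC1 and 0.652 in BXPC3. Another gene on the opposite strand covers 38.6% of the PDK2 exon bases.

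Most genes of the complex and its carrier were higher in GelMA. PDHB, the beta subunit of its first enzyme, read 114 and 120.1 RPKM in PANC1 5% GelMA and 103 and 104 RPKM in PANC1 7.5% GelMA, against 81.1 and 77.4 RPKM in PANC1 collagen, without overlap (log2 fold change 0.47, SE 0.04, adjusted p = 7.06e-06). In BXPC3 PDHB read 63.8 and 66.2 RPKM in 5% GelMA and 68.9 and 65.3 RPKM in 7.5% GelMA, against 62.4 and 58.95 RPKM in collagen, also without overlap, but the rise of 0.12 (adjusted p = 0.0387) ended as a call when any of 5 libraries was left out (adjusted p 0.0554 to 0.273), with a value of 0.08 without BXPC3 collagen replicate 2. Those 5 were BXPC3 5% GelMA replicate 2, BXPC3 7.5% GelMA replicate 1, BXPC3 collagen replicate 2 and both PANC1 7.5% GelMA replicates. DLAT, the acetyltransferase core, rose by 0.34 in PANC1 and 0.23 in BXPC3 (adjusted p = 8.05e-06 and 0.000382). PDHA1, the alpha subunit that the kinases phosphorylate, read 62.5 and 64.1 RPKM in PANC1 5% GelMA and 75.1 and 72.5 RPKM in PANC1 7.5% GelMA, against 59.1 and 62.5 RPKM in PANC1 collagen. Its rise of 0.17 there (adjusted p = 0.00859) was lost without PANC1 collagen replicate 1 (0.13, adjusted p = 0.0876), and in BXPC3 it was not called (0.08, adjusted p = 0.178). A gene on the opposite strand covers 21.3% of the PDHA1 exon bases. PDP1, the phosphatase that reactivates the complex, read 14.2 and 16.03 RPKM in PANC1 5% GelMA and 21.6 and 21.6 RPKM in PANC1 7.5% GelMA, against 12.7 and 12.6 RPKM in PANC1 collagen, a rise of 0.51 (adjusted p = 6.02e-05). In BXPC3 it read 47.4 and 46.01 RPKM in 5% GelMA and 46.8 and 46.2 RPKM in 7.5% GelMA, against 40.3 and 35.8 RPKM in collagen, a rise of 0.30 (adjusted p = 0.00416) that missed the threshold without BXPC3 collagen replicate 2 (0.21, adjusted p = 0.0538).

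MPC1 and MPC2 form the carrier that brings pyruvate across the inner mitochondrial membrane. MPC1 read 7.07 and 6.96 RPKM in PANC1 5% GelMA and 10.6 and 11.7 RPKM in PANC1 7.5% GelMA, against 7.35 and 6.08 RPKM in PANC1 collagen. In PANC1, 5% GelMA lay within the range of the collagen libraries and 7.5% GelMA above it, and the rise of 0.40 over both (adjusted p = 0.00827) was 0.27 without PANC1 collagen replicate 2 (adjusted p = 0.103). In BXPC3 MPC1 read 5.67 and 4.999 RPKM in 5% GelMA and 5.84 and 5.35 RPKM in 7.5% GelMA, against 3.48 and 3.497 RPKM in collagen, 1.56-fold higher in GelMA without overlap (adjusted p = 0.00122), the largest rise among the BXPC3 members. MPC2 rose by 0.43 in PANC1 and 0.32 in BXPC3 (adjusted p = 0.000222 and 0.00313), with 22.5% of its exon bases also covered by a gene on the other strand. Summed over both genes, the carrier reached 35.1 and 35.1 RPKM in PANC1 5% GelMA and 39.6 and 42.6 RPKM in 7.5% GelMA, against 29.4 and 27.2 RPKM in collagen.

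On the glycogen side the members UGP2, GYS1 and GBE1, which serve synthesis, were lower in GelMA in both lines. GYS1, the glycogen synthase of muscle and most other tissues, read 31.3 and 32.4 RPKM in PANC1 5% GelMA and 21.03 and 21.01 RPKM in PANC1 7.5% GelMA, against 62.95 and 64.3 RPKM in PANC1 collagen. The BXPC3 libraries held 71.0 and 77.2 RPKM in 5% GelMA and 82.1 and 78.5 RPKM in 7.5% GelMA, against 99.6 and 115 RPKM in collagen. It was 2.46-fold lower in PANC1 GelMA (adjusted p = 8.31e-08) and 1.39-fold lower in BXPC3 GelMA (adjusted p = 0.000215). GBE1, the branching enzyme, fell by 0.53 in PANC1 and 0.58 in BXPC3 on the log2 scale. UGP2, which makes the UDP-glucose used by the synthase, fell by 0.23 in PANC1 and by 0.10 in BXPC3, where the call ended when any of 8 libraries was left out (adjusted p 0.0556 to 0.191): each of the 6 BXPC3 libraries and both PANC1 5% GelMA libraries. PGM1, which links glucose 6-phosphate with glucose 1-phosphate, fell by 0.49 in PANC1 and 0.69 in BXPC3. PGM2, a relative that acts mainly on pentose phosphates, read 13.3 and 13 RPKM in PANC1 5% GelMA and 15.2 and 14.9 RPKM in PANC1 7.5% GelMA, against 10.8 and 10.9 RPKM in PANC1 collagen, a rise of 0.37 (adjusted p = 0.000273). Its levels in BXPC3 were 50.6 and 53.1 RPKM in 5% GelMA and 54.03 and 52.4 RPKM in 7.5% GelMA, against 65.6 and 75.0 RPKM in collagen, a fall of 0.42 (adjusted p = 0.000377). The groups did not overlap in either line, in opposite directions.

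The phosphorylases, which release glucose from glycogen, split by isoform. PYGL, the liver form (ENSG00000100504, chromosome 14), read 25.5 and 26.9 RPKM in PANC1 5% GelMA and 13.1 and 13.7 RPKM in PANC1 7.5% GelMA, against 71.2 and 68.4 RPKM in PANC1 collagen. It was 3.72-fold lower in PANC1 GelMA, with the smallest adjusted p of any member in that comparison (5.09e-09). BXPC3 cells held 53.4 and 52.7 RPKM in 5% GelMA and 58.3 and 61.01 RPKM in 7.5% GelMA, against 63.5 and 70.8 RPKM in collagen, a 1.19-fold decrease (adjusted p = 0.00369). PYGB, the brain form and the more abundant, read 378 and 378 RPKM in PANC1 5% GelMA and 412 and 428 RPKM in PANC1 7.5% GelMA, against 319 and 316 RPKM in PANC1 collagen. In BXPC3 it read 281 and 267 RPKM in 5% GelMA and 282 and 294 RPKM in 7.5% GelMA, against 255 and 233 RPKM in collagen. PYGB was 1.25-fold higher in PANC1 GelMA and 1.15-fold higher in BXPC3 GelMA (adjusted p = 9.02e-05 and 0.00382). The 2 forms summed to 404 and 405 RPKM in PANC1 5% GelMA and 425 and 441 RPKM in 7.5% GelMA, against 390.4 and 384 RPKM in collagen, so the total was slightly higher in GelMA while PYGL was lower.

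Isoforms of the same step can be set side by side as shares of their summed RPKM, a scale corrected for gene length. These shares describe the values above and carry no test of their own. Only the members are summed, so further isoforms such as PDK4 are not counted. HK2 made up 11.6% of hexokinase mRNA in PANC1 5% GelMA and 10.8% in 7.5% GelMA, against 27.6% in collagen. In BXPC3 it made up 26.7% and 27.9% in 5% and 7.5% GelMA, against 37.25% in collagen. PFKFB2 made up 46.9% and 66.7% of its family in PANC1 5% and 7.5% GelMA, against 14.45% in collagen, and 62.1% and 61.0% in BXPC3 5% and 7.5% GelMA, against 32.6% in collagen. The leading form of that family in collagen was PFKFB4 in PANC1 (47.8%) and PFKFB3 in BXPC3 (52.5%), while PFKFB2 led in all 4 GelMA groups. PFKM made up 17.1% and 22.7% of phosphofructokinase in PANC1 5% and 7.5% GelMA, against 10.96% in collagen, and 19.9% and 20.3% in BXPC3 GelMA, against 12.5% in collagen.

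Among PDK1, PDK2 and PDK3, PDK1 held the largest share in collagen in both lines. PDK2 held it in BXPC3 GelMA and PANC1 7.5% GelMA, while both stood about level in PANC1 5% GelMA. PDK4, which is outside these shares, reached a group mean of 14.33 RPKM in BXPC3 and 4.39 RPKM in PANC1. PDK2 is therefore not shown to lead the whole family in BXPC3 GelMA, where its group means were 12.06 and 10.42 RPKM. The PDK1 share was 45.4% in PANC1 5% GelMA and 20.3% in 7.5% GelMA, against 64.3% in collagen. In BXPC3 it was 30.7% and 35.3% in 5% and 7.5% GelMA, against 55.6% in collagen. The PDK2 share was 46.1% and 70.3% in PANC1 GelMA, against 25.7% in collagen, with a PDK2 level that was not called. PYGL made up 6.48% and 3.097% of phosphorylase in PANC1 GelMA, against 18.02% in collagen, and 16.2% and 17.2% in BXPC3 GelMA, against 21.6% in collagen. The mean ENO2 share of enolase was highest in PANC1 collagen, at 5.74%.

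**Figure D3:**
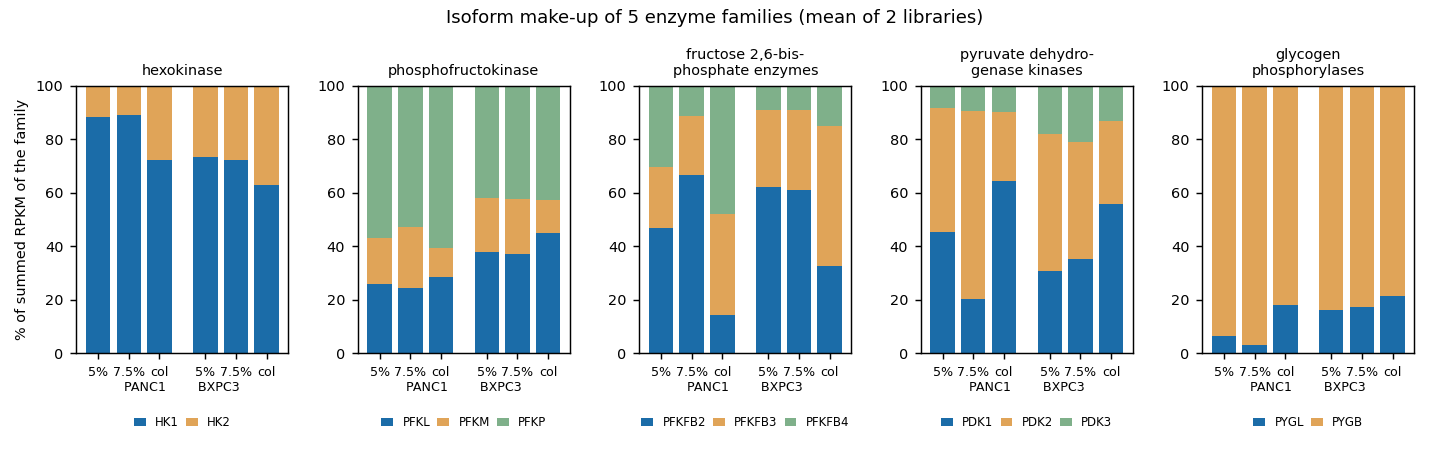
Share of each member isoform in the summed RPKM of the members of 5 enzyme families, as the mean of 2 libraries per group, with 5% GelMA, 7.5% GelMA and collagen (col) from left to right within PANC1 and BXPC3. PDK4 is not counted. HK2, PFKFB3 with PFKFB4, PDK1 and PYGL take smaller shares in GelMA than in collagen in both lines, for instance 20.3% against 64.3% for PDK1 between PANC1 7.5% GelMA and collagen.

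PANC1 cells held less glycolytic mRNA in 7.5% than in 5% GelMA, and in BXPC3 no member differed detectably between the 2 gels. In PANC1, 22 of 37 members were lower in 7.5% than in 5% GelMA, where 9.56% of tested genes were, and 4 were higher, where 9.16% were. The higher count stood near the share of all genes. The 22 included 10 of 14 uptake and upper glycolysis members and 6 of 7 lower glycolysis members. In BXPC3, 0 members were lower and 0 higher in limma, where 0.038% and 0.0443% of tested genes were, 6 members had an unadjusted p under 0.05, and 0 were called in any alternative analysis. The difference between the lines in this step was itself tested: the change in PANC1 minus that in BXPC3 was called below zero for 20 members, where 4.96% of tested genes were, and above zero for 1 (PDP1), where 4.01% were. SLC2A3 is counted among the 22, the 10 and the 20, although it lay at 0.584 RPKM or less in every GelMA library. It passed the filter only through the 2 PANC1 collagen libraries, which are not part of this comparison. With 1 RPKM added before the log its PANC1 difference was -0.45 (adjusted p = 0.00752 in limma).

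The PANC1 members with the largest decreases between the 2 gels, above 1 RPKM in each library, were ALDOC, PFKFB4, PDK1, ENO2 and PYGL. ALDOC read 10.3 and 8.42 RPKM in 7.5% GelMA, against 43.4 and 43.7 RPKM in 5% GelMA, a 4.68-fold decrease (-2.23, SE 0.15, adjusted p = 2e-05). PFKFB4 read 7.25 and 6.86 RPKM, against 26.9 and 25.4 RPKM (3.71-fold lower, adjusted p = 8.61e-05). PDK1 read 6.34 and 6.98 RPKM, against 23.5 and 21.6 RPKM (3.38-fold lower, adjusted p = 1.17e-05). In the same step in BXPC3, PDK1 read 8.76 and 8.11 RPKM in 7.5% GelMA and 6.98 and 7.47 RPKM in 5% GelMA, with a log2 difference of 0.22 that was not called (adjusted p = 0.559). ENO2 was 2.22-fold lower, PYGL 1.95-fold and PGK1 1.86-fold in PANC1 7.5% GelMA. LDHA read 1017 and 998 RPKM in 7.5% GelMA, against 1683 and 1683 RPKM in 5% GelMA (1.67-fold lower, adjusted p = 0.0012).

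The 4 members that were higher in PANC1 7.5% GelMA were SLC2A1, PDHA1, PDP1 and MPC1, and 3 of them serve pyruvate entry. MPC1 read 10.6 and 11.7 RPKM in 7.5% GelMA, against 7.07 and 6.96 RPKM in 5% GelMA (log2 fold change 0.67, SE 0.12, adjusted p = 0.00445). PDP1 read 21.6 and 21.6 RPKM, against 14.2 and 16.03 RPKM (0.52, SE 0.07, adjusted p = 0.000866). SLC2A1, low in GelMA as a whole, read 56.7 and 66.2 RPKM in 7.5% GelMA, against 50.6 and 47.7 RPKM in 5% GelMA, and this rise of 0.32 (adjusted p = 0.0401) ended as a call when any library but PANC1 7.5% GelMA replicate 1 and the 2 BXPC3 collagen libraries was left out (adjusted p 0.0532 to 0.26), with the lowest value, 0.21, without PANC1 7.5% GelMA replicate 2. The count of higher members was 2 without either PANC1 5% GelMA library, since the PDHA1 call ended there too, as it did without PANC1 7.5% GelMA replicate 1 (adjusted p 0.0598 to 0.0955). PDHB went against its neighbours, with 103 and 104 RPKM in 7.5% GelMA and 114 and 120.1 RPKM in 5% GelMA, a fall of 0.18 (adjusted p = 0.0261) that ended when any of 3 libraries was left out (0.099 to 0.185): PANC1 5% GelMA replicate 2 or either 7.5% library. Without either BXPC3 collagen library PGM2 (0.19) and PYGB (0.15) were also called higher and ENO1 (-0.20) lower, and ALDOA (-0.80) was called lower without PANC1 7.5% GelMA replicate 1. The calls of PDK3 and PFKFB3 in this step also ended without single PANC1 libraries, PDK3 for each of the 4 GelMA libraries (adjusted p 0.0881 to 0.133) and PFKFB3 for 5% replicate 1 and both 7.5% libraries (0.0556 to 0.106).

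**Figure D4:**
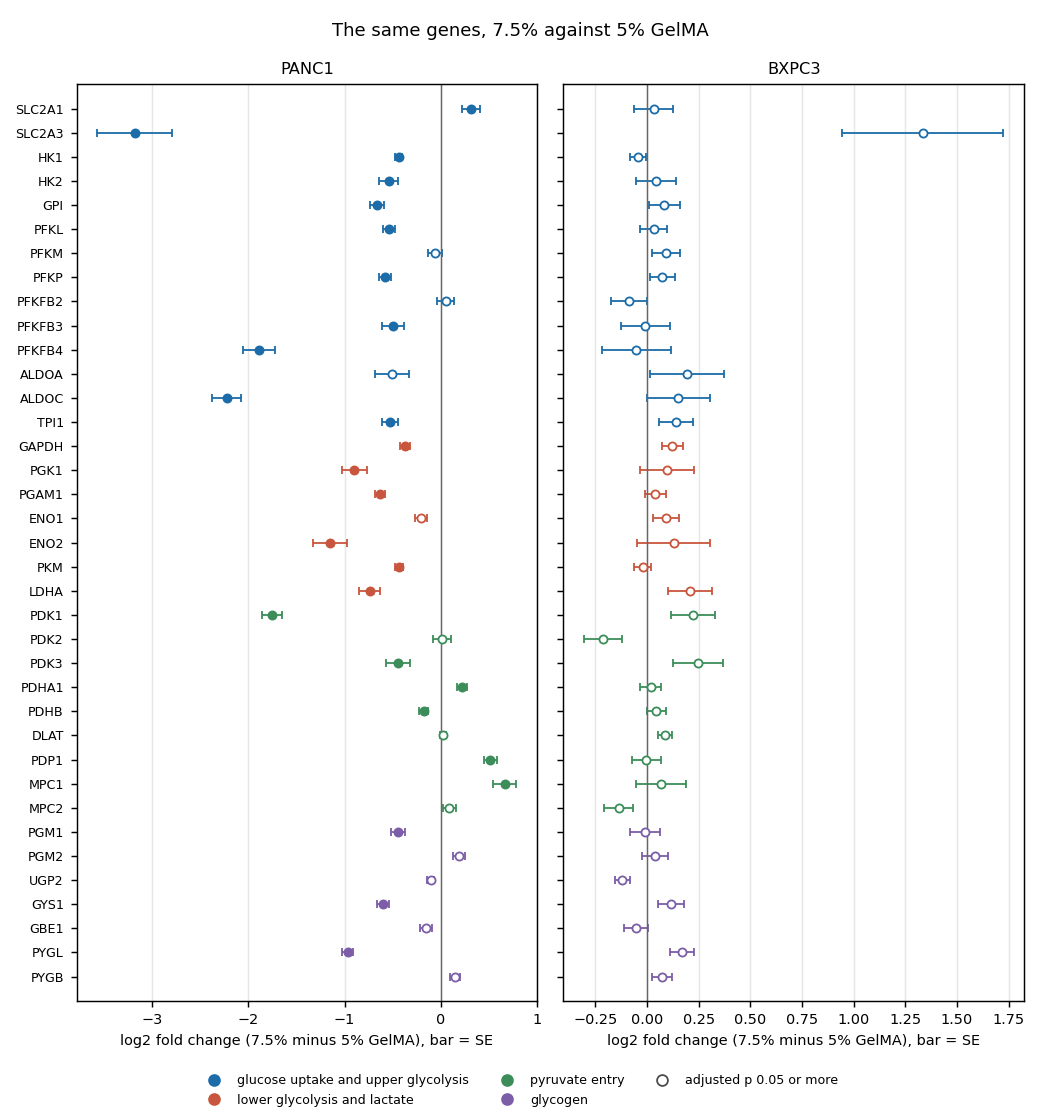
Log2 fold change of each tested member between 7.5% and 5% GelMA, in PANC1 (left) and BXPC3 (right, on a narrower axis), with the SE as a bar and open circles for an adjusted p of 0.05 or more. In PANC1, 22 members lie left of zero as called decreases, led among those above 1 RPKM by ALDOC (-2.23), PFKFB4 (-1.89) and PDK1 (-1.76), and in BXPC3 every circle is open.

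The effect of GelMA against collagen was then compared between the lines as an interaction, the PANC1 log2 fold change minus that of BXPC3. For 18 members it was lower, meaning a stronger fall in PANC1, where 20.6% of tested genes were lower, and for 3 it was higher, where 18.5% were. SLC2A3 is counted among the 18, although it passed the filter only through the PANC1 collagen libraries. The largest differences among members above 1 RPKM were in HK2 (-1.66, SE 0.12, adjusted p = 5.95e-06), ALDOA (-1.66, SE 0.22, adjusted p = 0.00026), PYGL (-1.64, SE 0.07, adjusted p = 3.99e-07) and ALDOC (-1.54, SE 0.19, adjusted p = 0.000153). GPI differed by -1.36 (SE 0.09) and PFKFB4 by -1.37 (SE 0.20). HK1, PKM and PDK3, called in PANC1 alone, did differ between the lines, by -0.72, -0.42 and -1.29 (adjusted p = 2.83e-06, 0.000115 and 0.000109), and PDHA1 was not shown to differ (0.09, adjusted p = 0.303). The 3 higher values were PGM2 (0.79), PDHB (0.35) and PFKFB2 (0.30). TPI1, ENO1 and GBE1 gave differences of -0.08, 0.02 and 0.05 that were not called. PFKL (-0.10) and ENO2 (-0.44) were not called either, but without BXPC3 collagen replicate 2 they were called at -0.22 (adjusted p = 0.013) and -0.81 (adjusted p = 0.000138).

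Some of these differences rest on single libraries. The PFKFB2 call ended when any of 10 libraries was left out, replicate 2 of PANC1 and BXPC3 collagen being the exceptions (adjusted p 0.0547 to 0.179), with a value of 0.16 without PANC1 collagen replicate 1. The UGP2 call (-0.13) ended for all libraries (0.0516 to 0.117) but BXPC3 5% GelMA replicate 2 and replicate 2 of PANC1 collagen and PANC1 7.5% GelMA. The PGK1 call (-0.51) ended for 6 (0.0513 to 0.0736): replicate 1 of PANC1 5% GelMA, PANC1 7.5% GelMA and BXPC3 5% GelMA, both PANC1 collagen libraries and BXPC3 7.5% GelMA replicate 2. Other calls appeared when a library was left out: PDP1 (0.30) and PYGB (0.19) without BXPC3 collagen replicate 2, PDP1 (0.26) and DLAT (0.13) without PANC1 5% GelMA replicate 1, and PGM1 without replicate 1 of PANC1 collagen (0.29) or of BXPC3 collagen (0.30). For PGK1 the value was -0.23 without BXPC3 collagen replicate 1 and -0.79 without replicate 2. Without BXPC3 collagen replicate 1 the PFKP difference was -0.19, against -0.31 with all libraries, and that of PFKFB3 was -0.43, against -0.65. In the interaction of the GelMA percentage, HK2, PDK3 and PGM1 each lost their call when any of 7 of the 8 GelMA libraries was left out (adjusted p 0.0517 to 0.105 over the 3 genes), the exception being PANC1 7.5% GelMA replicate 2 for PGM1 and BXPC3 5% GelMA replicate 2 for HK2 and PDK3. The ENO2 call ended without PANC1 5% GelMA replicate 1 or BXPC3 7.5% GelMA replicate 1 (0.051 and 0.0527).

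The lines also differed in the levels of many members. In collagen 21 members were higher in PANC1 than in BXPC3, where 47.5% of tested genes were, and 9 were lower, where 38.7% were. In GelMA 17 were higher, where 48.6% were, and 17 lower, where 41.3% were, so in GelMA the members stood near the shares of all genes. SLC2A3 is counted among the 21 and the 17 that were higher, although it passed the filter only through the PANC1 collagen libraries. Rescaling the libraries by their median ratio shifts the lines against each other by 0.11 on the log2 scale, PANC1 minus BXPC3. SLC2A1 (-2.001 in collagen), PGM2 (-2.69), PDP1 (-1.59) and GYS1 (-0.75) were lower in PANC1. PFKFB4 (2.24), ENO2 (2.15), PDK1 (1.53) and LDHA (1.196) were higher, with an LDHA of 2291 and 2291 RPKM in PANC1 collagen and 863 and 1158 RPKM in BXPC3 collagen. PDK1 was also higher in PANC1 over both GelMA groups together (0.65), but the 2 gels differed. Its group mean was higher in PANC1 in 5% GelMA (22.51 against 7.227 RPKM in BXPC3). In 7.5% GelMA it was lower in PANC1 (6.663 against 8.434 RPKM in BXPC3). HK2 was lower in PANC1 in both matrices (-0.58 in collagen, -2.24 in GelMA). For PGK1 the difference in collagen, 0.43, was 0.15 without BXPC3 collagen replicate 1 and 0.71 without replicate 2. After rescaling, the difference in GelMA was -0.27 for GPI (against -0.16 before, a call that ended without PANC1 5% GelMA replicate 2, PANC1 7.5% GelMA replicate 1, BXPC3 5% GelMA replicate 2 or BXPC3 7.5% GelMA replicate 1, adjusted p 0.0518 to 0.063), -0.25 for GAPDH and 0.04 for ENO1, which was then not called (adjusted p = 0.422), and the difference in collagen was 0.21 for PDHA1.

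Other genes of the same processes were taken from 4 lists, whose counts stand against 27.4% of all tested genes lower and 27.7% higher in PANC1 GelMA, and 16.7% lower and 19.4% higher in BXPC3 GelMA. Of 12 tested glucose and lactate transport genes, 3 were lower and 7 higher in PANC1 GelMA, and 3 were lower and 2 higher in BXPC3 GelMA, so the lower count in PANC1 and the higher count in BXPC3 stand near those of all genes. SLC16A3, the lactate exporter MCT4, fell by 1.59 in PANC1 (adjusted p = 1.93e-09) and 0.45 in BXPC3 (adjusted p = 3.03e-05) on the log2 scale. SLC2A8, an intracellular glucose transporter, rose by 1.85 in PANC1 (adjusted p = 2.86e-08), and SLC2A10 rose by 0.91 in PANC1 and fell by 0.57 in BXPC3. Of 9 further glycolytic and gluconeogenic genes, 3 were lower and 2 higher in PANC1, and 2 were lower and 2 higher in BXPC3, counts that stand near those of all genes. PCK2, the mitochondrial enzyme that makes phosphoenolpyruvate, fell by 1.23 in PANC1 (adjusted p = 4.75e-07). Of 9 further pyruvate entry genes, 1 was lower and 5 were higher in each line. PDK4, a further pyruvate dehydrogenase kinase, rose by 0.46 in PANC1 (adjusted p = 0.025) and was not called in BXPC3 (0.16, adjusted p = 0.433). PDHX, which anchors another subunit in the pyruvate dehydrogenase complex, rose by 0.34 in PANC1 (adjusted p = 0.000119) and 0.23 in BXPC3 (adjusted p = 0.00312).

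Of 20 further glycogen genes, 8 were lower and 6 higher in PANC1 GelMA, and 8 were lower and 3 higher in BXPC3 GelMA, the higher counts being near or below the shares of all genes. GYG1, the glycogenin that primes glycogen synthesis, rose by 0.21 in BXPC3 (adjusted p = 0.0021) and was not called in PANC1 (0.07, adjusted p = 0.131). PPP1R3C, which targets protein phosphatase 1 to glycogen, fell by 3.0 in PANC1 (adjusted p = 5.52e-07) and 0.94 in BXPC3 (adjusted p = 0.00261). PPP1R3G, of the same family, fell by 2.34 in PANC1 (adjusted p = 4.4e-06) and 1.68 in BXPC3 (adjusted p = 0.000146). PGM2L1, a relative of PGM2 that makes glucose 1,6-bisphosphate, rose by 1.59 in PANC1 (adjusted p = 2.1e-07). PHKA1, a subunit of the kinase that activates phosphorylase, rose by 0.53 in PANC1 (adjusted p = 7.62e-06). Other subunits of that kinase differed in direction. PHKA2 fell by 0.42 in PANC1 and 0.22 in BXPC3, while PHKB rose by 0.24 in PANC1 and fell by 0.27 in BXPC3. PHKG1 fell by 0.62 in PANC1 and was not called in BXPC3, and PHKG2 was called in neither line.

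Genes outside the pathway that are known to respond to hypoxia moved with the glycolytic members. Of 15 tested, 15 were lower and 0 higher in PANC1 GelMA, where 27.4% and 27.7% of all tested genes were. In BXPC3 GelMA 13 were lower and 0 higher, where 16.7% and 19.4% of all tested genes were. Their median log2 fold change was -2.04 in PANC1 and -0.71 in BXPC3, and their summed level was 1280 to 1627 RPKM in PANC1 GelMA, against 5412 to 5675 RPKM in PANC1 collagen, and 1441 to 1518 RPKM in BXPC3 GelMA, against 2718 to 3317 RPKM in BXPC3 collagen. NDRG1, a stress response gene, fell by 3.13 in PANC1 (adjusted p = 1.94e-07) and 2.20 in BXPC3 (adjusted p = 1.52e-05). VEGFA, the vascular growth factor, read 136 and 133 RPKM in PANC1 5% GelMA and 97.8 and 98.9 RPKM in PANC1 7.5% GelMA, against 559 and 657 RPKM in PANC1 collagen. In BXPC3 VEGFA read 564 and 539 RPKM in 5% GelMA and 575 and 561 RPKM in 7.5% GelMA, against 681 and 632 RPKM in collagen. That fall was 0.23 on the log2 scale (adjusted p = 0.0118 in limma). ADM (0.13, adjusted p = 0.241) and BNIP3 were not called in BXPC3, where BNIP3 group means reached at most 0.0428 RPKM. CA9 read 0.186 and 0.327 RPKM in BXPC3 5% GelMA and 0.318 and 0.201 RPKM in BXPC3 7.5% GelMA, against 19.4 and 50.95 RPKM in BXPC3 collagen. In PANC1 CA9 read 1.68 and 1.56 RPKM in 5% GelMA and 0.0427 and 0.0747 RPKM in 7.5% GelMA, against 4.53 and 4.96 RPKM in collagen. Between 7.5% and 5% GelMA, 11 of the 15 were lower in PANC1, where 9.56% of all tested genes were, and 0 in BXPC3, where 0.038% were. The part of this shift in the values of the members was not tested.

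Markers of other cells and mitochondrially encoded mRNAs were read beside these results. Of all tested genes, 27.4% were lower and 27.7% higher in PANC1 GelMA, and 16.7% were lower and 19.4% higher in BXPC3 GelMA. In PANC1, 8 of 13 mitochondrially encoded mRNAs were higher in GelMA and 0 lower, with a sum of 72800 to 74160 RPKM in GelMA, against 65230 to 65400 RPKM in collagen. In BXPC3, 1 was higher and 1 lower, with 72410 to 72620 RPKM in GelMA, against 70380 to 71870 RPKM in collagen. Values are fixed by rank in a table taken to be quantile normalized. MT-CO1, for instance, had a highest group mean of 13630 RPKM in both lines, with a log2 fold change of 0.0 in each. These sums therefore cannot show the mitochondrial share of the reads or the RNA quality of a library. Of 5 epithelial markers, 4 were higher in PANC1 GelMA and 3 in BXPC3 GelMA, with 0 lower. Of 7 fibroblast markers 3 were analysed here, summing to 222 to 426 RPKM in PANC1 GelMA, against 141 to 147 RPKM in PANC1 collagen, with COL1A1 higher by 1.66 (adjusted p = 2.97e-08) and COL3A1 lower (-2.62, adjusted p = 4.77e-08) on the log2 scale. In BXPC3 the same 3 summed to 18.3 to 19.8 RPKM in GelMA, against 19.65 to 19.74 RPKM in collagen. The 3 immune markers analysed summed to 6.76 to 8.69 RPKM in PANC1 GelMA, against 5.59 to 7.903 RPKM in PANC1 collagen, and to 17.2 to 23.4 RPKM in BXPC3 GelMA, against 15.6 to 17.3 RPKM in BXPC3 collagen, mostly from CD14. The 2 endothelial markers summed to at most 0.216 RPKM in PANC1 and to 2.54 to 4.096 RPKM in BXPC3. The part of these shifts in the values of the members was not tested.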

How the data were processed

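Poly-A RNA was captured after RNeasy extraction, per the labels' protocols. Reads were aligned with HISAT2 2.1.0 and counted with HTSeq on GRCh38, per the submitters' processing notes. The authors deposited 1 table of log2 RPKM values for the 12 libraries. The values were taken to be quantile normalized, which was read from the table and is not given in the sources used here: sorted values were equal between libraries within 0.05 on the log2 scale for 13758 genes and differed over the lowest 2541 ranks. Quantile normalization fixes the distribution in each library, so a change in total mRNA could not appear. The strand setting, annotation, added offset and depth are not stated in these sources.

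Ensembl IDs were named from a gene name table (16250) and GENCODE 29 (49), which also gave positions and exon overlaps. limma 3.58.1 in R 4.3.3 was fitted to the deposited log2 values of all 12 libraries, with a mean for each of the 6 groups, a variance trend and 6 residual plus 3.89 prior degrees of freedom. Genes under 1 RPKM in all but 1 library were left out (505), p-values were adjusted over 15794 genes and a call needed an adjusted p under 0.05. The GelMA effect is the mean of the 5% and 7.5% groups minus collagen. The fit was tested on simulated data before use. Between replicates the SD of log2 differences over genes was 0.295 to 0.364. Alternatives were 2 pseudocounts, other filters, rescaling, a fit without trend, separate fits by line, a replicate block and leaving out each library. Outside the members, genes were named as the 4 per list and line with the largest called changes whose mean reached 3 RPKM in some group, and others shown were chosen after their values were seen. The members and lists were chosen with earlier results of these data known. SLC2A14 and PGAM4, close relatives of SLC2A3 and PGAM1, were not analysed here.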

Additional observations from a re-analysis of the deposited data

Results flagged for a closer look

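The values below are members whose response differed between the lines in an interaction test in limma (adjusted p under 0.05 over all tested genes), given as the PANC1 log2 fold change minus that of BXPC3, so that a negative value means a stronger fall, or a smaller rise, in PANC1. For GelMA against collagen, 21 members stood out. Among uptake and upper glycolysis genes the differences were -0.79 for SLC2A1, -4.68 for SLC2A3, -0.72 for HK1, -1.66 for HK2, -1.36 for GPI, -0.31 for PFKP, 0.30 for PFKFB2, -0.65 for PFKFB3, -1.37 for PFKFB4, -1.66 for ALDOA and -1.54 for ALDOC. Among lower glycolysis genes they were -0.51 for PGK1, -0.52 for PGAM1 and -0.42 for PKM. Among pyruvate entry genes they were -0.89 for PDK1, -1.29 for PDK3 and 0.35 for PDHB. Among glycogen genes they were 0.79 for PGM2, -0.13 for UGP2, -0.83 for GYS1 and -1.64 for PYGL. The SLC2A3 value rests on levels under 1 RPKM in 10 of 12 libraries, and with 1 RPKM added before the log it was -3.03.

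For 7.5% against 5% GelMA, 21 members also stood out. Among uptake and upper glycolysis genes the differences were -4.51 for SLC2A3, -0.39 for HK1, -0.58 for HK2, -0.75 for GPI, -0.57 for PFKL, -0.65 for PFKP, -1.84 for PFKFB4, -2.38 for ALDOC and -0.67 for TPI1. Among lower glycolysis genes they were -0.49 for GAPDH, -0.997 for PGK1, -0.67 for PGAM1, -1.28 for ENO2, -0.41 for PKM and -0.95 for LDHA. Among pyruvate entry genes they were -1.98 for PDK1, -0.69 for PDK3 and 0.52 for PDP1. Among glycogen genes they were -0.43 for PGM1, -0.72 for GYS1 and -1.14 for PYGL. With 1 RPKM added, the SLC2A3 difference was -0.52. The causes of these differences were not tested.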

How the results depend on the processing

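Counts of members called stayed within 1.5 times the reported count under all other settings except these. For the GelMA effect in PANC1 minus BXPC3, the higher members numbered 5 after rescaling by median ratios, against 3. For the percentage effect in PANC1 minus BXPC3, they numbered 2 with at least 1 RPKM required in every library and 2 with log2(RPKM + 1), against 1. When 1 library was left out, higher members numbered 4 to 8 for GelMA in BXPC3, 2 to 6 for the percentage in PANC1, 2 to 5 for the GelMA effect in PANC1 minus BXPC3 and 1 to 2 for the percentage effect in PANC1 minus BXPC3. The BXPC3 ratio of SLC2A3 to SLC2A1 turned from -0.73 to 0.10 with log2(RPKM + 0.1). The cause was not tested. Over all comparisons of members, leaving out a library ended 101 calls and added 32, and a fit without the variance trend ended 10. Requiring at least 1 RPKM in every library removed SLC2A3 and added 6 calls.

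Replicate numbers did not pair the libraries: deviations of same-numbered libraries correlated at -0.0485 to 0.0771. With the replicate number as a block, 8 calls ended and 1 was added, with 21 members lower and 7 higher for GelMA in BXPC3, and 21 lower and 3 higher for the percentage in PANC1.

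With 2 libraries per group and an unknown depth, small differences in BXPC3 are not well resolved, and values below 1 RPKM depend on the offset of the log scale.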

Other observations

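The pentose phosphate pathway branches off glycolysis at glucose 6-phosphate and makes NADPH and ribose. Of 12 pentose phosphate genes, 7 were lower and 3 higher in PANC1 GelMA than in collagen (limma), and 1 was lower and 5 were higher in BXPC3 GelMA. Of all tested genes, 27.4% were lower and 27.7% higher in PANC1, and 16.7% lower and 19.4% higher in BXPC3. PGD, the 6-phosphogluconate dehydrogenase of the oxidative branch, rose by 0.55 on the log2 scale in PANC1 (SE 0.08, adjusted p = 0.000305) and by 0.56 in BXPC3 (SE 0.08, adjusted p = 0.000656). PRPS1, which makes the ribose donor for nucleotides, rose by 0.78 in PANC1 (adjusted p = 1.13e-07), while RPIA, which interconverts pentose phosphates, fell by 0.59 (adjusted p = 0.00014).

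Of 17 citrate cycle genes, which oxidise the acetyl groups that pyruvate dehydrogenase makes, 8 were higher and 4 lower in PANC1 GelMA, where 27.7% and 27.4% of all tested genes were. In BXPC3 GelMA 9 were higher and 3 lower, where 19.4% and 16.7% of all tested genes were. The lower counts are near the shares of all genes. OGDH, a subunit of oxoglutarate dehydrogenase, rose by 0.39 in PANC1 (adjusted p = 1.03e-05) and 0.33 in BXPC3 (adjusted p = 0.000124). FH, the fumarase, rose by 0.63 in PANC1 (adjusted p = 2.34e-05) and 0.26 in BXPC3 (adjusted p = 0.0115). IDH2, the mitochondrial NADP-dependent isocitrate dehydrogenase, fell by 0.89 in PANC1 (adjusted p = 9.65e-06).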
